A study of Mus musculus with 10 samples.

Results

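Chaperones and heat shock proteins were read on spotted arrays that compared mouse pups kept from their mothers with pups left with them. The array spots named as heat shock proteins, DnaJ proteins, chaperonins, calreticulin, calnexin, protein disulfide isomerases or peptidylprolyl isomerases were gathered, and spots with an identical name were joined. This gave 57 names on 90 spots, out of 15188 names on the array. Of these, 9 names were assigned to the endoplasmic reticulum (ER) and 4 to mitochondria by gene lists, 8 could not be tied to 1 gene, and the other 36 were counted with the cytosol and nucleus. Those 36 include Ppic, Lgals3bp and 2 names for Dnajb12, which are not, or not only, proteins of the cytosol. The rule used names alone and no measured value. It also took in names that are not chaperones, such as the heat shock factors Hsf1, Hsf2 and Hsf4, which are transcription factors, and Lgals3bp, a secreted protein listed as associated with cyclophilin C.

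Chaperones are proteins that help other proteins fold, keep them from clumping and refold them after damage. In the cytosol, Hsp70 proteins work with J-proteins (the DnaJ family) that bring them clients, and the ring-shaped chaperonin CCT folds actin and tubulin. Hsp90 holds steroid receptors, the glucocorticoid receptor among them, in a form that can bind hormone. The ER has its own Hsp70 (Hspa5), lectin chaperones (Canx, Calr) and isomerases for secreted proteins, and mitochondria have the Hspd1 and Hspe1 chaperonin. Many cytosolic members are induced by heat shock factors, and many ER members by the unfolded protein response.

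RNA came from the paraventricular nucleus (PVN) of the mouse hypothalamus, where neurons that drive pituitary stress hormone release lie. Pups kept from their mothers for 24 h were compared with pups left with them, whole litters having been allotted to either condition at random. Each group had 6 animals. The nucleus was punched from 100 µm sections with a 1 mm corer, punches of 2 animals were joined into 1 sample, and the 3 samples of a group became 1 pool of 40 µg amplified RNA. The sources used here give no strain, age, sex or litter for the animals in a pool. Both pools were hybridised together on 10 spotted cDNA arrays of 2 colours. On 5 of them, here called the Cy5 arrays, Cy5 marked the separated pool, and on the other 5, the Cy3 arrays, Cy3 marked it. The 10 arrays are technical repeats of 1 pool per group, so the design gives no p-value for separation, and the SD over arrays says nothing of the spread between animals or litters. In punched tissue, fewer cells of a type and less RNA per cell cannot be told apart.

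Values are log2 ratios of the separated over the non-separated pool. A value is the average of the means in both dye orientations, with the SD over 10 arrays. Direction follows the dye fields of the labels and the file headers. The authors' deposited table correlated with these ratios at -0.96 to -0.92, so it ran as non-separated over separated, and if it was meant the other way every sign below would reverse. A spot counted as above background where its mean log2 intensity exceeded the 95th percentile of the 1170 empty spots on at least 8 of 10 arrays, and a looser limit used the 75th percentile. A name was called where it differed by 1.5-fold or more and all 10 arrays had the same sign.

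The median intensity of an array's spots was 269 to 489 in the Cy5 channel and 404 to 929 in the Cy3 channel. The orientations were scanned on separate days, so dye orientation and scan day cannot be told apart, and each orientation's mean is also a within-batch value. Over the 1804 names above background, the means of the 2 orientations correlated at -0.41, as a description across genes. One array, Cy3 array 3, stood apart before normalization, with a median log2 ratio of Cy5 over Cy3 of 0.27 against -1.50 to -0.79 on the others. Of the neuropeptides that define the PVN, Avp, Oxt and Trh were on the array, and 0 of 3 exceeded the 95th percentile of empty spots, while all 3 exceeded the 75th.

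No chaperone was called higher or lower between the pools. Of 57 names, 20 were above background, and 0 of 20 passed the call, against 0.166% of all 1804 names called higher and 0.277% called lower. The 20 values ran from -0.41 to 0.25 with a median of -0.03, and the median over all 1804 names was 0.03. Values lay below 0 for 11 of 20 (55%), against 44.3% of all names. The value was under 1.2-fold for 17 of 20, and some of these average opposite readings of the 2 orientations. The median absolute value was 0.14 for the 20, against 0.15 over all 1804 names. Below 0 on every array were 3 of 20 (15%), against 4.49% of all names, and these were Cct8, Dnajb3 and Ppia, all of the cytosol. Above 0 on every array were 0 of 20, against 1.83% of all names. Leaving out the array that stood apart gave the same counts, 0 called and 3 below 0 on every remaining array. Under the looser limit 53 names could be read, and 0 of 53 were called, against 0.0297% of all 13482 names called higher and 0.134% called lower. Values lay below 0 for 31 of 53 (58.5%), against 49.3% of all. The 4 names left unread even then were Dnajc4, Lgals3bp, a clone named for Dnajb12 and a name for a protein related to protein disulfide isomerase.

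**Figure D1:**
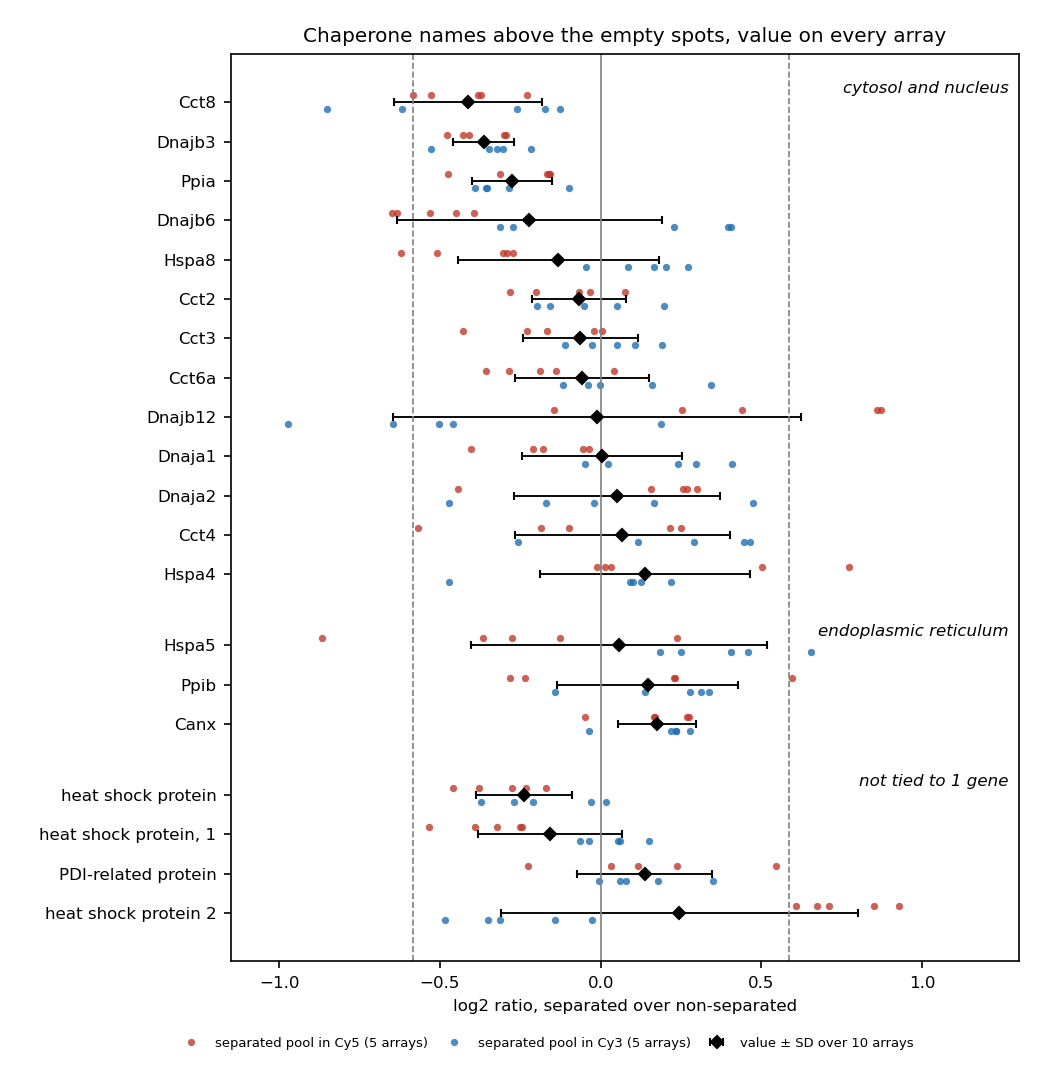
Log2 ratio of the separated over the non-separated pool (x axis) for the 20 chaperone names above the 95th percentile of empty spots, by compartment. Red points are the Cy5 arrays and blue points the Cy3 arrays, black diamonds with bars are the value ± SD over 10 arrays, and dashed lines mark 1.5-fold; Cct8, Dnajb3 and Ppia lie below 0 on every array, and the arrays of heat shock protein 2 split by dye.

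Among the chaperonin subunits of the cytosol, Cct8 had the value farthest from 0. It is the theta subunit of the CCT ring and read -0.38, -0.37, -0.53, -0.23 and -0.58 on the 5 Cy5 arrays. On the Cy3 arrays it read -0.13, -0.26, -0.17, -0.85 and -0.62. All 10 arrays were below 0 and the orientations overlapped. The value was -0.41 ± 0.23 (SD, n = 10 arrays), a 1.33-fold difference that stays under the 1.5-fold limit. Its only spot exceeded the 95th percentile of empty spots on 8 arrays, the fewest that the rule allows. The spots of Dnajb3 and Ppia did so on all 10. The other 4 subunits above background were nearer to 0. Cct2, the beta subunit, was at -0.07 ± 0.15, Cct3, the gamma subunit, at -0.06 ± 0.18, and Cct6a, a zeta subunit, at -0.06 ± 0.21. Cct4, the delta subunit, was at 0.07 ± 0.33. For each of these 4 the SD over arrays exceeded the value, and arrays fell on both sides of 0. The difference between Cct8 and the other subunits was not tested. Cct6b and Cct7 were not above background.

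Among the J-proteins, Dnajb3 had the tightest value. It is a member best known from the mouse testis, and its spot was bright, with a median intensity before normalization of 10737 in the separated and 30380 in the non-separated pool on the Cy5 arrays, and of 10672 and 13337 on the Cy3 arrays. These pairs include the gap between dyes and give no direction. Its log2 ratios on the Cy5 arrays were -0.30, -0.43, -0.41, -0.48 and -0.29. On the Cy3 arrays they were -0.31, -0.32, -0.22, -0.35 and -0.53. The orientations overlapped, and the value was -0.36 ± 0.10 (SD, n = 10 arrays), or 1.29-fold. This rests on 1 spot, and whether the clone is specific to Dnajb3 was not tested.

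The other J-proteins lay nearer to 0 or split by dye. Dnaja1 and Dnaja2, partners of Hspa8, were at 0.00 ± 0.25 and 0.05 ± 0.32. Dnajb6, known for keeping polyglutamine proteins from clumping, was at -0.22 ± 0.41, with a mean of -0.53 on the Cy5 arrays and 0.09 on the Cy3 arrays. With its second spot, under the looser limit, it was at -0.02 ± 0.35. Dnajb12, an ER membrane protein whose J domain faces the cytosol and which is counted here with the cytosol, was at -0.01 ± 0.64, with orientation means of 0.46 and -0.48. Its value is an average of opposite readings and not of values near 0. It rests on 1 of the 3 spots of that name. On the Cy5 arrays the median intensity of this spot was 39339 in the separated pool, against 147 and 237 for the others. Whether the bright clone is specific to Dnajb12 was not tested. With all 3 spots, under the looser limit, the value was -0.14 ± 0.47. The J-proteins Dnaja4, Dnajb1, Dnajc2, Dnajc4, Dnajc5 and Dnajc7 were not above background.

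Hspa8, the constitutive Hsp70 of the cytosol (Hsc70), had 2 of its 4 spots above background. On the Cy5 arrays it read -0.30, -0.62, -0.29, -0.51 and -0.27. The Cy3 arrays gave -0.05, 0.08, 0.27, 0.17 and 0.20. No array of the first set reached the lowest of the second, and the value was -0.13 ± 0.31 (SD, n = 10 arrays). With all 4 spots, under the looser limit, the sign turned, at 0.02 ± 0.25. Hspa4, an Hsp110-type exchange factor that resets Hsp70, read 0.01, 0.50, 0.03, -0.01 and 0.77 in the first orientation. In the second it read 0.10, 0.12, 0.22, 0.09 and -0.47. It was above 0 on 8 of 10 arrays, at 0.14 ± 0.33. The heat-induced Hsp70 gene Hspa1b was not above background.

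Ppia, cyclophilin A, is an abundant prolyl isomerase of the cytosol and the target of cyclosporin. On the Cy5 arrays its ratios were -0.16, -0.31, -0.17, -0.47 and -0.16. On the Cy3 arrays they were -0.36, -0.28, -0.35, -0.39 and -0.10. All arrays were below 0 and the orientations overlapped, with a value of -0.28 ± 0.12 (SD, n = 10 arrays), or 1.21-fold. The other cytosolic cyclophilins Ppid, Ppie, Ppil1 and Ppil4 were not above background. Hsp90ab1, the constitutive cytosolic Hsp90, passed the intensity limit on 7 arrays, 1 short of the 8 needed. The small heat shock proteins Hspb1, Hspb3 and Hspb7 and the 3 heat shock factors were not above background either.

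Of the 9 names assigned to the ER, Canx, Ppib and Hspa5 were above background, and all 3 values were above 0. Dnajb12 of the ER membrane, counted elsewhere, was not (-0.01 ± 0.64), nor was Hsp90b1, the Hsp90 of the ER, which falls outside the name rule (-0.10 ± 0.21). Canx, the membrane lectin that holds glycoproteins while they fold, read 0.27, -0.05, 0.17, 0.17 and 0.27 on the Cy5 arrays. On the Cy3 arrays it read 0.28, 0.23, -0.04, 0.23 and 0.22. It was above 0 on 8 of 10 arrays, at 0.18 ± 0.12 (SD, n = 10 arrays). Only 2 of its 3 spots were above background, and these differed, at 0.34 ± 0.26 and 0.01 ± 0.14. The dimmer spot, read under the looser limit alone, was at -0.05 ± 0.46. With all 3 spots, under that limit, Canx was at 0.13 ± 0.28 and above 0 on 6 of 10 arrays.

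Ppib, the cyclophilin of the ER, read -0.23, 0.60, 0.23, 0.23 and -0.28 on the Cy5 arrays. The Cy3 arrays gave 0.28, -0.14, 0.34, 0.31 and 0.14. The arrays fell on both sides of 0 in both sets, and the value was 0.15 ± 0.28. Hspa5 (BiP), the Hsp70 of the ER and the best known target of the unfolded protein response, read -0.87, -0.28, -0.37, -0.13 and 0.24 on the Cy5 arrays. The Cy3 arrays gave 0.25, 0.41, 0.18, 0.66 and 0.46. Only 1 array of the first set reached the range of the second, so its value of 0.06 ± 0.46 joins means of -0.28 and 0.39. Calr, the soluble partner of Canx, passed the intensity limit on 2 arrays and was not above background, nor were Calr3, Dnajb9, Dnajb11, Dnajc1 and Dnajc3.

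The promoters of 4 ER genes held a known element of the unfolded protein response, and these 4 are printed to show it. The 250 bases before each RefSeq start (assembly GRCm38.p6) were searched on both strands for the ER stress response element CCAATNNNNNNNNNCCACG. A promoter was in the RefSeq table for 37 of the 48 member genes. The element was in 4 of 37 (10.8%), all of them ER genes, against 35 of 27025 genes in all (0.13%). Capitals mark the match, and each sequence reads 5′ to 3′ on its gene's strand. Hspa5 is at chr2:34771840-34772089 (plus strand), Canx at chr11:50325674-50325923 (minus strand), Calr at chr8:84846932-84847181 (minus strand) and Dnajc3 at chr14:118937682-118937931 (plus strand).
Hspa5: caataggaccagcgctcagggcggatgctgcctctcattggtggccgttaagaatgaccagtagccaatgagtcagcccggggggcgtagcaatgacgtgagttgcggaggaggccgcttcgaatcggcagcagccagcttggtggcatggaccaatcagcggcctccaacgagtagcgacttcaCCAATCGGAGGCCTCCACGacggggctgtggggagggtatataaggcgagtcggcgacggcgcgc
Canx: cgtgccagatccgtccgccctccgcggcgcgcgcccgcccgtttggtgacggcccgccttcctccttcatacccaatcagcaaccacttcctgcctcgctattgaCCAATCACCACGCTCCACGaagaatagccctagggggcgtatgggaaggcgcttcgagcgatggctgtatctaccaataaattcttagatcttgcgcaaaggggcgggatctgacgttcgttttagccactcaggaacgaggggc
Calr: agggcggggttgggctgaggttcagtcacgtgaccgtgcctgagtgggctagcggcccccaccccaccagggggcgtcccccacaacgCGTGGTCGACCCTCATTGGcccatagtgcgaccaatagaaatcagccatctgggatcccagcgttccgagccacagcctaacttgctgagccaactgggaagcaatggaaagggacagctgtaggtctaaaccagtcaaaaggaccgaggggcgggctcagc
Dnajc3: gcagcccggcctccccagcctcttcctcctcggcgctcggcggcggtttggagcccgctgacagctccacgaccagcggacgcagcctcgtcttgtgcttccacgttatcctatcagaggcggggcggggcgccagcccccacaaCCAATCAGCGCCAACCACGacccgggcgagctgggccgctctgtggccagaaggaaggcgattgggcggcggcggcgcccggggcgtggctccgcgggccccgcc
In Calr the match lies on the opposite strand and so appears as its reverse complement. Of these 4 genes, Hspa5 and Canx could be read above the 95th percentile, with the values given above. Under the looser limit Calr was at 0.09 ± 0.34 and Dnajc3, a J-protein that is known as an inhibitor of the kinase PERK, at 0.08 ± 0.36. None of the 4 was called, and a match of letters shows neither binding nor use of a site.

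The heat shock element was searched in the same windows as 3 units, TTCNNGAANNTTC or GAANNTTCNNGAA, which are reverse complements of each other. It was in 3 of 37 members (8.11%), Dnajb6, Hspd1 and Hspe1, against 139 of 27025 genes (0.514%). Hspd1 and Hspe1, the mitochondrial Hsp60 and its lid Hsp10, start head to head, and their windows share the same stretch, so that 1 sequence shows both. It is printed with that of Dnajb6 to show the matches. Hspe1 is at chr1:55087898-55088147 (plus strand) and Dnajb6 at chr5:29735648-29735897 (plus strand), and capitals mark the matches, of which those of Hspe1 overlap.
Hspe1: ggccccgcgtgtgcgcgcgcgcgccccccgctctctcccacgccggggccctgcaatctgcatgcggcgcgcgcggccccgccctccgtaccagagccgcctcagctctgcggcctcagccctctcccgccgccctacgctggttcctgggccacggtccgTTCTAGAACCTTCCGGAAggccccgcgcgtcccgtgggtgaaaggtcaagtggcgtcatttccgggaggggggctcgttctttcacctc
Dnajb6: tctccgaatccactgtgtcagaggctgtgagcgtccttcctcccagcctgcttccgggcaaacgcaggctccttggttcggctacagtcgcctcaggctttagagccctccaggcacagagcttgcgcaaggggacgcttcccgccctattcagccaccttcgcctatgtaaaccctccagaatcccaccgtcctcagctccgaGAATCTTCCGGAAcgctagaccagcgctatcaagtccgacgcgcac
With only 2 units, GAANNTTC, the element was in 9 of 37 members (24.3%) and in 7.73% of all genes. None of the 3 members with the 3-unit element was called. Dnajb6 was at -0.22 ± 0.41, and under the looser limit it was at -0.02 ± 0.35, Hspd1 at -0.05 ± 0.20 and Hspe1 at -0.24 ± 0.38.

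Some names on the array do not say which gene they mean, and these are given by the name alone. The name heat shock protein, read from 1 of its 4 spots, was -0.27, -0.46, -0.23, -0.17 and -0.38 on the Cy5 arrays. On the Cy3 arrays it was -0.27, -0.37, -0.03, -0.21 and 0.02. It was below 0 on 9 of 10 arrays, at -0.24 ± 0.15 (SD, n = 10 arrays). Its dimmer spots read otherwise, and under the looser limit its median over 3 spots was -0.02 ± 0.21. The name heat shock protein 2, which may mean Hspa2 or Hspb2, read 0.93, 0.71, 0.61, 0.67 and 0.85 in the first orientation. In the second it read -0.49, -0.14, -0.31, -0.03 and -0.35. The sets were fully apart, the Cy5 arrays all above 0 and the Cy3 arrays all below 0, at 0.25 ± 0.56. The name heat shock protein, 1 was at -0.16 ± 0.22, with a mean of -0.35 on the Cy5 arrays and 0.03 on the Cy3 arrays. Each of its Cy5 arrays lay below each of its Cy3 arrays. Under the looser limit its 5 spots ran from -0.30 to 0.07. The name protein disulfide isomerase-related protein was at 0.14 ± 0.21. Under the looser limit, heat shock protein, A joined the names below 0 on all 10 arrays, at -0.26 ± 0.13. That made 4 of 53 (7.55%) against 1.06% of all 13482 names.

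Many of these readings differed between the dye orientations. The orientation means had opposite signs for 11 of 20 names (55%), against 65.4% of all names above background. Arrays of one orientation lay wholly above those of the other for 4 of 20 (20%), against 42.7% of all. These shares under the looser limit were 43.4% of 53 members against 56.3% of all names, and 9.43% against 10.1%. Hspa8, Dnajb6, Dnajb12, Hspa5 and heat shock protein 2 lie in the quadrants of opposite sign in the plot of both orientation means, while Cct8, Dnajb3 and Ppia lie close to the line of equal means.

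**Figure D2:**
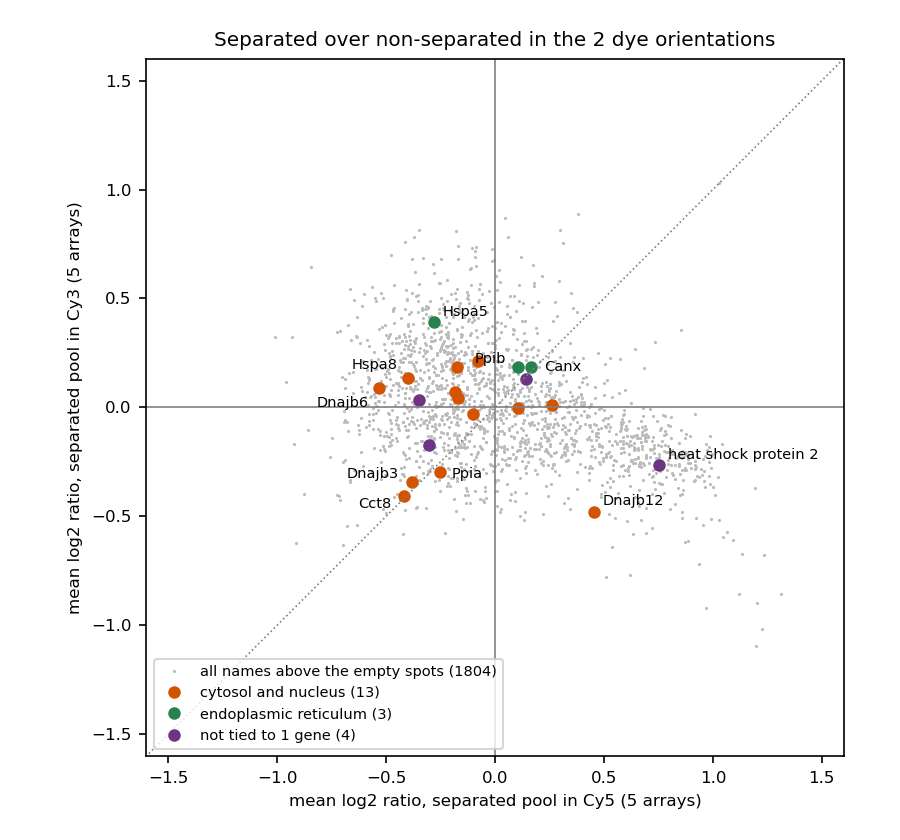
Mean log2 ratio of the separated over the non-separated pool over the 5 Cy5 arrays (x axis) and the 5 Cy3 arrays (y axis). Grey points are all 1804 names above background, coloured points the 20 chaperone names by compartment, and the dotted line marks equal means; Cct8, Dnajb3 and Ppia lie near that line below 0, and heat shock protein 2 at 0.75 and -0.26.

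The compartments were compared by the median of their names. Above the 95th percentile the cytosolic median was -0.06 (13 of 36 names, 9 of them below 0) and the ER median 0.15 (3 of 9 names, all above 0), with 0.03 over all names. Array by array, the ER median exceeded the cytosolic one by 0.26 ± 0.21 (SD, n = 10 arrays) and was higher on 8 of 10. The difference was 0.29 on the Cy5 arrays and 0.24 on the Cy3 arrays. It rests on 3 ER names. With Dnajb12, read from 1 of its 3 spots, moved to the ER, the ER median was 0.10 over 4 names. Array by array the difference was then 0.28 ± 0.23, higher on 8 of 10. Under the looser limit, with all 9 ER names and 33 cytosolic ones, the difference was 0.10 ± 0.14, and the ER was higher on 7 of 10 arrays. No call follows from either, since the pools are single.

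Mitochondrial members could be read under the looser limit alone, since 0 of 4 exceeded the 95th percentile. Hspd1, the folding chamber, read -0.37, 0.10, 0.05, -0.06 and -0.41 on the Cy5 arrays. On the Cy3 arrays it read -0.06, 0.23, 0.09, -0.11 and 0.03, so both sets fell on both sides of 0. Dnaja3, a J-protein that partners mitochondrial Hsp70, was at -0.43 ± 0.35 and below 0 on 9 of 10 arrays. Ppif, the cyclophilin that regulates the permeability transition pore, was at 0.24 ± 0.50. The mitochondrial median was -0.14, and array by array it differed from the cytosolic one by -0.04 ± 0.21, lower on 5 of 10 arrays. Against the ER it differed by -0.14 ± 0.18 and was lower on 8 of 10.

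**Figure D3:**
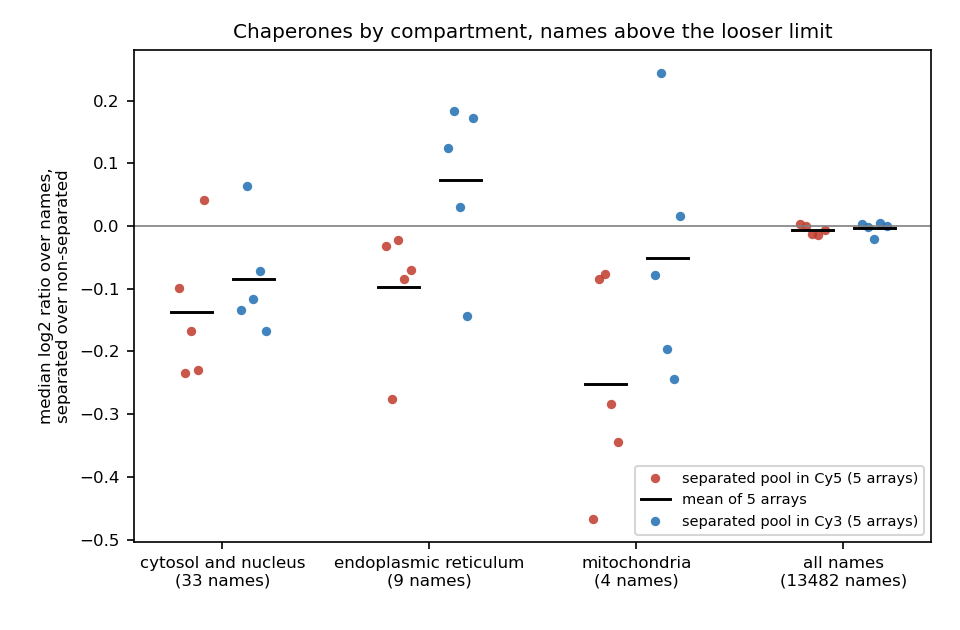
Median log2 ratio of the separated over the non-separated pool (y axis) over the names of each compartment above the 75th percentile of empty spots, and over all names. Each point is 1 array, coloured by dye orientation, and bars are means of 5 arrays; ER medians lie below 0 on the 5 Cy5 arrays, and the 3 compartments overlap.

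Spots of the same name gave a check on the values within each array set. Under the looser limit 16 names had several spots, and the values of a name's spots differed by 0.06 to 0.53, with a median range of 0.30. For 10 of 16 names the spots lay on both sides of 0. Hspa8 spots ran from -0.16 to 0.29, and those of Hspa4 from -0.04 to 0.40. The 2 spots of Hsp90ab1 were both below 0, at -0.31 and -0.16, as were those of Hspe1, at -0.30 and -0.18. Cct8, Dnajb3 and Ppia had 1 spot each, so no such check exists for them.

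**Figure D4:**
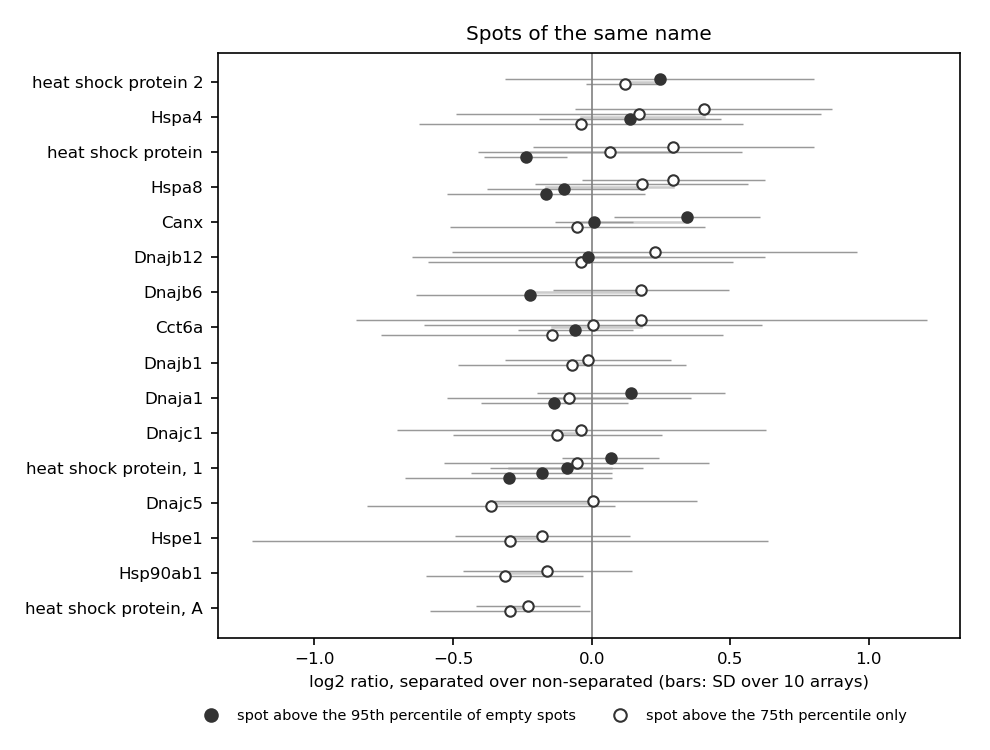
Value of every spot (x axis, log2 ratio of the separated over the non-separated pool, bars: SD over 10 arrays) for the 16 names with several spots above the 75th percentile of empty spots. Filled points exceeded the 95th percentile and open points only the 75th; spots of Hspa8 run from -0.16 to 0.29, and for 10 of 16 names they lie on both sides of 0.

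Other genes of protein folding, found by 36 further names, gave 6 above background and 0 called. They had 4 values above 0 and 2 below, with a median of 0.13, while under the looser limit the median over 33 names was -0.03. Fkbp1a, the FK506-binding prolyl isomerase, was at 0.31 ± 0.58, with orientation means of 0.81 and -0.20. Ptges3 (p23), a cochaperone of Hsp90, was at 0.18 ± 0.16 and above 0 on 9 of 10 arrays. Pfdn5, a prefoldin subunit that hands clients to CCT, was at -0.17 ± 0.43. Fkbp5, a glucocorticoid-induced cochaperone of the receptor's Hsp90 complex, was at 0.16 ± 0.29 and above 0 on 8 of 10 arrays. Hsp90b1, given above among the ER genes, was below 0 on 7 of 10 arrays.

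Markers of glia and of PVN neurons were read beside these values. Of 12 astrocyte markers 7 were above background, with a median of -0.50, and the array medians of the list ran from -0.82 to -0.08. The glutamine synthetase gene Glul was at -0.77 ± 0.17 and the aldolase Aldoc at -0.64 ± 0.28, both called. Glul was read from 5 of its 9 spots, and with all 9, under the looser limit, it was at -0.41 ± 0.29 and not called. Under that limit the called markers were Aldoc (-0.60 ± 0.25) and the connexin Gjb6 (-1.22 ± 0.40). Fabp7 went the other way, at 0.19 ± 0.09 and above 0 on all 10 arrays, and Slc1a3 was at 0.04 ± 0.13, while Gfap was not above background. The median over all 12 was -0.21 under the looser limit. Of 5 oligodendrocyte markers 3 were above background, at -0.43 to 0.25. Mbp, read from 1 of its 6 spots, was at -0.43 ± 0.27 and below 0 on all 10 arrays. With all 6 spots, under the looser limit, it was at -0.30 ± 0.31. The values of Mobp (0.20 ± 0.47) and Cnp (0.25 ± 0.89) average opposite readings. Their means were 0.61 and 1.06 on the Cy5 arrays, and -0.22 and -0.57 on the Cy3 arrays. The neuropeptides of the PVN could be read under the looser limit alone. There Avp was at -0.53 ± 0.49 and below 0 on 9 of 10 arrays. Oxt was at -0.31 ± 0.92 and Trh at -0.13 ± 0.60, with arrays on both sides of 0. The part of these cell types in the values of Cct8, Dnajb3 and Ppia was not tested.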

How the data were processed

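Each array was deposited as 24192 spots. Per the file headers, spot intensity on a linear scale was quantified in QuantArray with a fixed circle, without background subtraction or crosstalk correction. The Cy3 columns, recorded under the unit other, were deposited as intensities on that same scale. The series table held the authors' deposited log2 ratios for 19025 spots, whose normalization the sources used here do not give; its column medians were 0.001 to 0.009, and it served as an alternative.

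From the intensities, ratios were computed with normexp (offset 50) and global loess, with controls at weight 0 (limma 3.58.1, R 4.3.3), and turned to separated over non-separated. Controls (1374 spots) and the exact names EST and ESTs (2154 spots) were left out. A name's value on an array was the median over its spots above background. The number of arrays limits the precision of the ratio between these pools alone. With 1 pool per group, more arrays would not show the spread between animals. Calls followed size and sign, with no test. Of 57 names, 49 were given a symbol by hand (48 genes), which was not checked against clone sequences.

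Every member name above background is given with its value, while of the other folding genes and the markers only some are. Values on every array are given for the 4 lowest, the 4 highest and the main chaperone of each class where above background; those of Hspd1 were added after its values were seen. Members and lists were chosen with earlier results of these data known. Same-numbered arrays of opposite dye deviated together at correlations of -0.04 to 0.11, so the numbers were not taken as pairs. Alternatives were no background correction, print-tip loess, median centring, no or other detection limits, the brightest spot, 1 orientation alone, the authors' table, a replicate block, no sign rule and leaving out each array.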

Additional observations from a re-analysis of the deposited data

Results flagged for a closer look

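In 3 of 44 sets of 5 arrays, each a detected name or a compartment median in 1 dye orientation, 1 array lay far from the other 4, by a gap search that chance meets in about 1 of 20 sets. Canx read -0.035 on Cy3 array 3, against 0.22 to 0.28 on the others, and its value without that array was 0.20. Dnaja2 read -0.44 on Cy5 array 4, against 0.16 to 0.30, and its value without it was 0.12. Hspa4 read -0.47 on Cy3 array 5, against 0.09 to 0.22, and its value without it was 0.20. None of these was called with or without the array.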

How the results depend on the processing

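The count of 0 called members held under every alternative except the Cy5 arrays alone, which gave 1 (heat shock protein 2); the same arrays gave 1 call among the other folding genes (Fkbp1a) where the full set gave 0. The count of 3 members below 0 on every array was chosen after seeing the data. It was 8 on the Cy5 arrays alone, 6 with the replicate block, which averages same-numbered arrays, and 0 above the 99th percentile of empty spots, where 1 member remained. Leaving out single arrays gave 3 to 4. The count above 0 on every array, 0 in all, was 4 with the replicate block and 1 in each orientation alone. The share of all names was not computed for these settings, so these counts and calls are no result about chaperones. One orientation alone keeps the dye difference, and 42.7% of all names above background had 1 orientation wholly above the other. The block changes only the SD and the sign counts, so values and compartment medians were the same under it by definition. With no member value at 1.5-fold, it could add no call. The cytosolic median stayed within -0.18 to 0.01 and was above 0 only on the Cy3 arrays alone; the ER median stayed within 0.06 to 0.19, and under the looser limit it was -0.02 on the Cy5 arrays alone. Both moved by less than the SD between arrays. Cct8, Dnajb3 and Ppia kept values below 0 under all 21 settings, among which the replicate block cannot change a value. Canx was 0.01 from its brightest spot, and the name heat shock protein was -0.02 under the looser limit and -0.08 with no limit. Hspa8 (0.02) and Dnaja1 (-0.05) turned sign under the looser limit, and Dnajb6 was -0.02. The ER median was 0.10 with Dnajb12 counted there. Signal over empty spots limits what can be read, since 37 of 57 names did not exceed the 95th percentile, all 4 mitochondrial ones among them.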
